A study of Rattus norvegicus with 12 samples.

Results

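Adult rat soleus was described here by its miRNA signals in the offspring of control dams, without any comparison of maternal diets. The 6 arrays whose title and dam diet say control were taken from the 12 arrays of the series, with 1 array per rat, and every non-control row of their tables was used. The rats were male Sprague-Dawley offspring, 1 year old. Their dams ate standard chow before mating, in pregnancy and in lactation, and the methods state that the offspring were weaned to standard chow as well. The labels name no other treatment. The sources used here do not say which rats were littermates. The rats are called by their labels: C73, A110 and C60 shared the first slide, and H10, A89 and A75 shared the second. Each array measured 100 ng of total RNA from whole soleus, so a lower signal can stand for fewer cells of a type or for less RNA per cell, which cannot be told apart in bulk tissue.

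MicroRNAs are short RNAs that a protein of the Argonaute family holds against complementary sites in messenger RNAs, to lower the translation or the stability of those messages. Pairing starts at the seed, bases 2 to 8 of the mature miRNA, and miRNAs with one seed form a family with largely shared targets. Soleus is a postural hind limb muscle rich in slow, oxidative fibres. Striated muscle is known for the miR-1, miR-133 and miR-206 genes, which follow the myogenic transcription factors, and for miR-499 and miR-208b, which lie in introns of myosin heavy chain genes of slow and cardiac type.

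The mature sequences below belong to the miRNAs that held most of the signal. They were read from RefSeq (GRCr8), printed 5′ to 3′, with the seed in capitals. The array names most of these miRNAs without an arm, and the arm was taken as the commonly known guide arm. The first group holds the muscle miRNAs: miR-1 and miR-206 share a seed, as do miR-133b and miR-133a.
miR-1: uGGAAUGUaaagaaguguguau
miR-206: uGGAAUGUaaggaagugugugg
miR-133b: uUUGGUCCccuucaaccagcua
miR-133a: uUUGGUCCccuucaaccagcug
miR-499: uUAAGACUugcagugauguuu

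The second group holds families whose members were bright together in all 6 rats, and miR-22, the brightest miRNA outside the muscle list.
miR-22: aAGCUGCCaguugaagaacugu
miR-29a: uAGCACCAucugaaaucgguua
miR-29b: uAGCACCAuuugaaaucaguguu
miR-29c: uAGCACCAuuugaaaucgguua
let-7a: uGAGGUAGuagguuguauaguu
let-7f: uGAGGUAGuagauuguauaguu
let-7c: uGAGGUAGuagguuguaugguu
let-7b: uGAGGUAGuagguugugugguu
miR-23a: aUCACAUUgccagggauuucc
miR-27a: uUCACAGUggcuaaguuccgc
miR-26a: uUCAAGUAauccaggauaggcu

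Several of these sequences are nearly identical. Counting from 1 at the 5′ end and giving the base of the sequence compared against first, miR-133a has the change A22G relative to miR-133b, let-7f has G12A relative to let-7a, let-7c has A19G relative to let-7a, and miR-29c has C10U relative to miR-29a. Between miR-1 and miR-206 the changes are A11G, A21G and U22G, all outside the seed. How well the probes of the array tell such pairs apart was not tested, so the level of a single member of a close pair is less certain than that of its family.

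The soleus profile was led by muscle miRNAs. miR-133b held 15.9% ± 2.04 (SD, n = 6) of the summed signal of detected miRNAs, miR-1 held 14.7% ± 2.76 and miR-206 held 8.90% ± 1.21. These 3 miRNAs together took 39.6% ± 5.21 of the signal. Shares were computed within each array, so they do not depend on how bright an array was, but they rank signals and not molecules, because each probe has its own affinity. No test was made between miRNAs.

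miR-133b, which in muscle acts with its paralog on regulators of proliferation and differentiation, had signals from 50959 to 103006 scanner units (median 73299). miR-1, a promoter of muscle differentiation, had signals from 43190 to 96621 (median 68428). miR-206, a skeletal muscle paralog of miR-1 that is typically high in slow muscle, had signals from 28794 to 52020 (median 40967). In these unscaled signals A75 was highest and C73 lowest for each of the 3 miRNAs. In shares, miR-133b was first in 4 rats and miR-1 in A110 and H10, and miR-206 had rank 3 in all 6. The shares of miR-133b and miR-1 overlapped between these miRNAs, 13.9 to 19.1% and 11.8 to 18.3%, while miR-206 stayed between 7.66% in A89 and 10.9% in C60. The share of miR-1 was highest in H10.

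**Figure D1:**
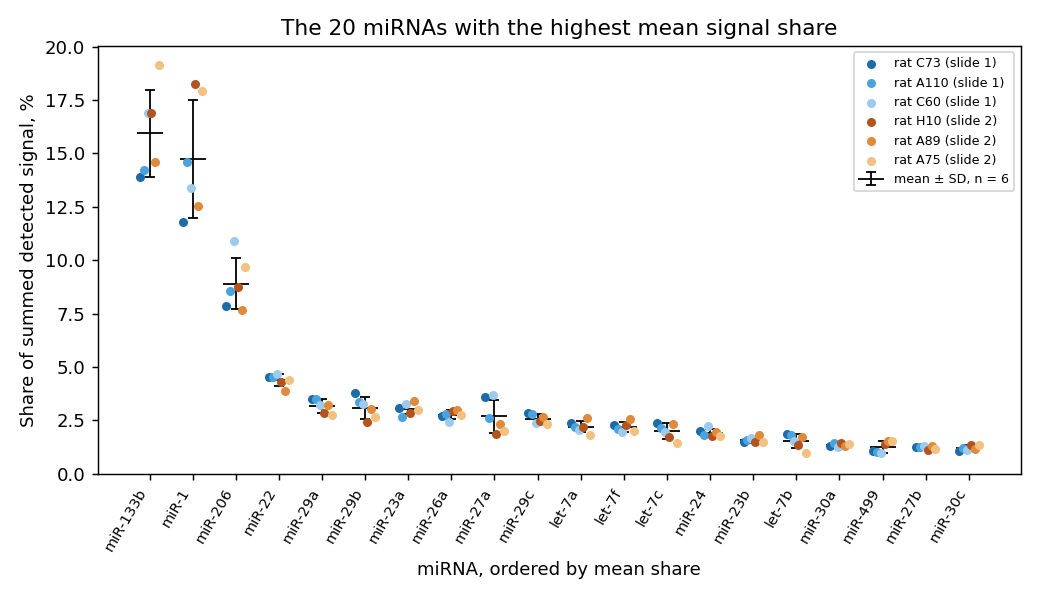
Share of each rat's summed detected signal in percent (y axis) for the 20 miRNAs with the highest mean share (x axis). Coloured points are the 6 rats, and black bars are mean ± SD over them; miR-133b, miR-1 and miR-206 stand above the other 17, none of which passed 4.65% in any rat.

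Behind the first 3 the shares dropped to under 5%. miR-22, a miRNA known in muscle for a part in growth and remodelling, had rank 4 in every rat, with 3.88 to 4.65% (median 4.47%). The next 6 by mean share were miR-29a (3.17% ± 0.33), miR-29b (3.08% ± 0.50), miR-23a (3.05% ± 0.27), miR-26a (2.77% ± 0.20), miR-27a (2.69% ± 0.78) and miR-29c (2.58% ± 0.22). Their ranks crossed from rat to rat, since each of the 6 ranked between 5 and 12 in every rat. miR-27a was the least steady of them, with 3.69% in C60 and 1.88% in H10. The second 10 ran from let-7a (2.21% ± 0.26) to miR-30c (1.20% ± 0.12), and neighbours in that order differed by less than the larger of their SDs, except miR-24 (1.92% ± 0.19) and miR-23b (1.59% ± 0.14).

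The same miRNAs led in all rats. Of each rat's own 20 brightest miRNAs, 16 were shared by all 6 rats and 23 appeared in at least 1 rat. For the 10 brightest, 9 were shared and 12 appeared. The 10 miRNAs with the highest mean share took 61.3% ± 4.01 of the signal (56.3 to 66.6%), and the 20 highest took 77.8% ± 2.95.

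Grouping by seed gave the order of families. Of the 50 brightest miRNAs, 44 had a RefSeq sequence, and these 44 carried 26 seeds. The miR-1 and miR-206 seed took 23.6% ± 3.33 of the signal and the miR-133 seed 16.3% ± 2.13. The let-7 seed, the family of a broad brake on growth genes, took 10.1% ± 1.38 over 7 members. The miR-29 seed, known for its collagen and other matrix targets, took 8.82% ± 0.99 over 3 members of similar share. Over rats the let-7 share ran from 7.82 to 11.6% and that of the miR-1 and miR-206 seed from 19.7 to 27.6%.

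Sequence features of the bright miRNAs were also described. Of the 44 sequences, 31 began with U (70.5%), against 251 of the 693 mature rat miRNAs in the RefSeq table (36.2%). Argonaute proteins are known to prefer a U at the first base. The median GC content was 43.2% in the bright set and 47.8% in the table. The set was chosen by signal on this array, and most of its arms were assigned as the commonly known guide arm. The RefSeq table lists the other arms as well, so the compared sets are unlike. The figures describe them and were not tested.

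miR-133a and its passenger strand were ordered opposite to their usual names. The array's miR-133a had signals from 1048 to 3101 (median 1857), whereas miR-133a*, the other arm of that hairpin, had signals from 3007 to 5074 (median 4189). In each rat miR-133a* was above miR-133a, but the probes differ, so the arms' molar ratio is not known. The SD of the log2 ratio of the 2 arms over rats was 0.42. miR-133a held 0.406% ± 0.109 of the signal.

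The signal was concentrated in few miRNAs and then spread over a long tail. Between 4 and 8 miRNAs held 50% of a rat's signal (6.33 ± 1.63, n = 6), 31 to 36 held 90% and 88 to 105 held 99%. A75 was the most concentrated, with 4 miRNAs for 50% of the signal, and C73 and A89 needed 8. The effective number of miRNAs, the exponential of the Shannon entropy of the shares, ran from 25.05 in A75 to 35.9 in C73. The rank curves of the 6 rats lay close together over most of their length and parted at both ends.

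**Figure D2:**
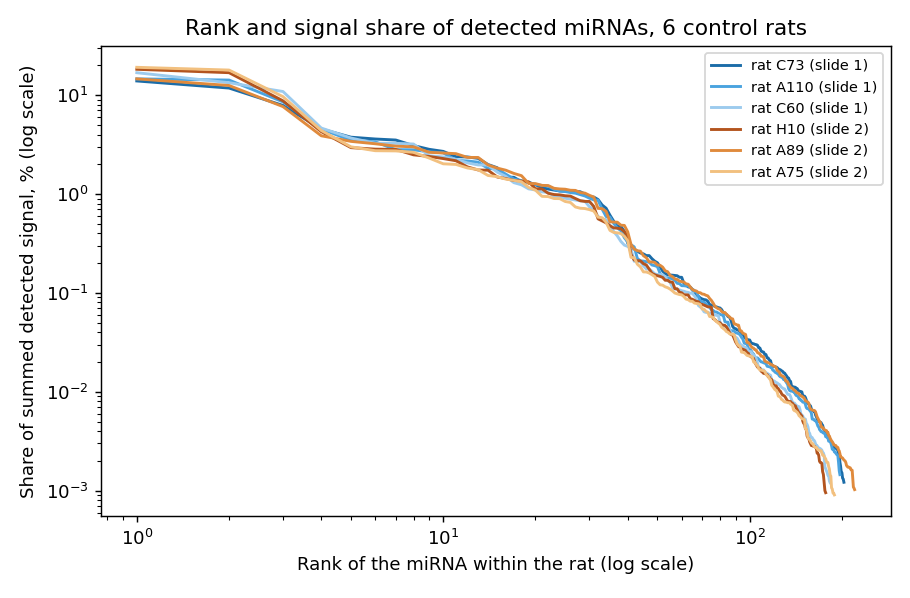
Share of summed detected signal in percent (y axis, log scale) against rank within the rat (x axis, log scale), 1 line per control rat. The lines begin at 13.9 to 19.1% and end between ranks 177 and 220, the number of detected miRNAs in each rat.

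The dynamic range covered 4 orders of magnitude. The brightest miRNA was 10064 to 21101 times as bright as the dimmest detected one in the same rat, or 13.8 ± 0.41 on the log2 scale (n = 6). The range rests on the dimmest signals: where detection also required a signal of at least 20, it was 11.8 on the log2 scale. The dimmest detected signal ran from 3.996 in C60 to 6.72 in A110. The median detected signal lay between 109 and 183, with H10 highest. Per rat, 8 to 15 miRNAs had signals of at least 10000, 31 to 37 had 1000 to 10000, 54 to 68 had 100 to 1000, 67 to 88 had 10 to 100 and 3 to 20 were under 10. Whether the brightest spots were saturated could not be read from these tables, and a saturated spot would make the top of the range too low.

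Detection was mostly all or none. The scanner software flagged 169 miRNAs (24.96%) as detected on all 6 arrays, 63 on 1 to 5 arrays and 445 (65.7%) on none. The 169 held 99.9% of the signal. Undetected miRNAs are listed at 0.1, which is a placeholder and gives only a bound. Names with a star, given to the arm once taken as the minor product, made up 240 rows. Of these, 29 were detected on all 6 arrays, 22 on some and 189 on none, and they held 2.36% of the signal. Of the 437 unstarred names, 140 were detected on all 6 arrays.

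The 63 partly detected miRNAs were mostly dim and were unevenly divided among the rats. A89 showed 51 of them, C73 34, A110 28, A75 20, C60 14 and H10 8. Of the 26 miRNAs detected in a single rat, 17 were detected in A89, the rat with the highest summed signal (553264) and the most detected miRNAs (220). H10 had a summed signal of 528297 but the fewest detected miRNAs (177), so a brighter array did not always list more miRNAs. H10 was also the one rat missing for 7 of the 12 miRNAs detected on 5 arrays, and C60 for 4. The role of array brightness and background in these counts was not tested.

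The partly detected miRNA with the highest mean share was miR-122, the dominant hepatocyte miRNA. Its signal was 311 in C73, 239 in H10, 53.8 in A89, 14.01 in A110 and 12.3 in A75, and it was not detected in C60. C73 and H10 were thus well above the other 4 rats. The next by mean share were miR-136 (149 in C73, 15.9 to 52.5 in 4 other rats, not detected in H10), miR-381 (123 in C73 and 36.2 in A89), miR-328a* (at most 61.6, in A89) and miR-434 (at most 39.4, in C73). By peak signal others were brighter than the last of these, among them miR-3544, detected in A110 alone at 92.7.

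The labelled tissue was checked against marker lists. Over all rows of the array, 24.96% were detected on all 6 arrays, and no list was tested against that share. The 5 muscle miRNAs matched by name were all detected in all 6 rats and together held 41.2% ± 5.40 of the signal (34.9 to 48.8%, median 40.6%). The names miR-486, miR-208a and miR-208b of the list matched no row used here. miR-208b-3p was detected in all 6 rats with signals from 19.4 to 102 (median 40.2). The array's miR-208, listed without a letter, was detected in no rat, and miR-208*, the other arm of that name, in all 6 with signals from 29.7 to 47.1.

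Markers of the other cells of a muscle were present at lower levels. Their detection is also read beside the 24.96% of all rows detected on all 6 arrays. Both endothelial names, miR-126 and miR-126*, were detected in all rats and held 1.03% ± 0.09. Both smooth muscle miRNAs, miR-143 and miR-145, were detected in all rats and held 1.17% ± 0.09. The 4 miRNAs listed for fibroblasts (miR-199a-5p, miR-199a-3p, miR-214 and miR-21) held 2.03% ± 0.63. The red blood cell miRNAs miR-451 and miR-144 held 0.307% ± 0.175. The 5 leukocyte miRNAs matched by name (miR-142-3p, miR-142-5p, miR-223, miR-150 and miR-146a) were detected in all rats and held 0.448% ± 0.095. Several of these miRNAs, such as miR-21 and miR-126, are also made by other cells, so the lists name usual sources and not proven ones.

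Markers of unrelated tissues were read against all rows of the array, of which 65.7% were detected in no rat. No difference of a list from that share was tested. Of 7 epithelial miRNAs, 5 (miR-200a, miR-200b, miR-200c, miR-141 and miR-429) were detected in no rat, while miR-203 was detected in 5 rats and miR-205 in A89 alone. Of 11 neural miRNAs, 6 were detected in no rat, among them miR-124, the leading neuronal miRNA. miR-128, miR-212 and miR-218 of that list were detected in all 6 rats, with median signals of 742, 691 and 32.8. Of the islet list, miR-375 was detected in no rat and miR-7a in all 6, with signals from 25.8 to 46.1. Of 8 miRNAs of the pluripotent list, 6 were detected in no rat and miR-295 in 2, whereas miR-290 was detected in all 6 with signals from 84.4 to 138. The liver list rested on miR-192, detected in all rats at 19.6 to 64.2, with miR-122 in 5 rats and miR-194 in 3.

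Rat-to-rat spread was measured on scaled signals. For scaling, the 169 miRNAs that all 6 arrays detected gave each array's 75th percentile, the array's signals were divided by it, and 1 common factor and a floor of 4.77 were applied. The SD over rats of the log2 scaled signal had a median of 0.27 (quartiles 0.18 and 0.39) over the 169 miRNAs. Where undetected miRNAs entered the 75th percentile, this median was 0.47. The error that the scanner software attached to each signal had a median of 0.12 in the same unit. The SD was above that error for 160 of the 169 miRNAs and above 2 times the error for 84. It passed 0.5 for 25 miRNAs and 1 for 3. The software's error covers the spots of 1 array only. The SD of miRNAs above the median signal was smaller (median 0.21) than that of the dimmer ones (median 0.33), and so was their software error (0.11 against 0.15).

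**Figure D3:**
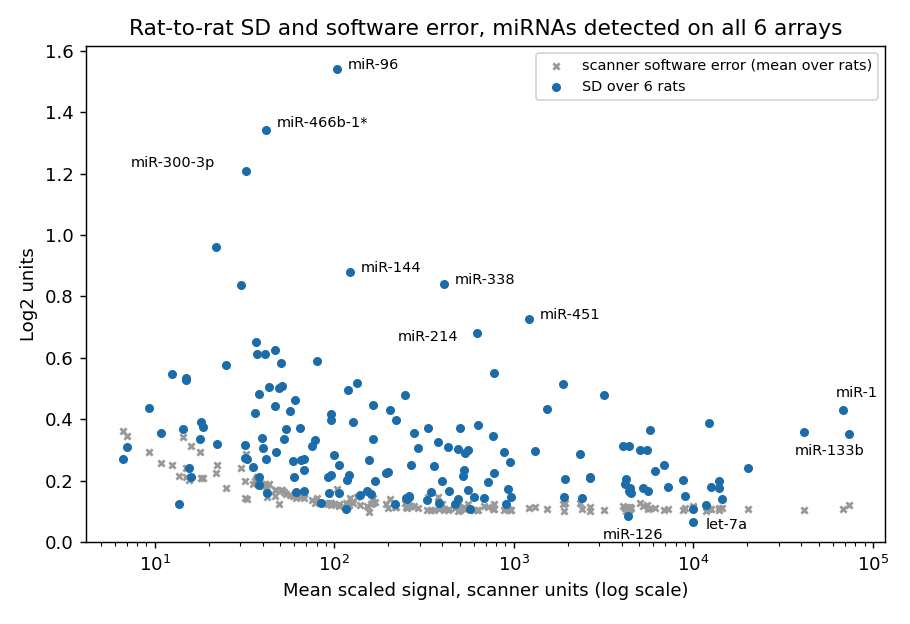
SD over the 6 rats of the log2 scaled signal (blue) and scanner software error (grey), both in log2 units (y axis), against mean scaled signal (x axis, log scale) for the 169 miRNAs detected on all arrays. Most blue points lie above the grey ones, with miR-96 highest at 1.54 and let-7a lowest at 0.07.

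On this scaling the steadiest miRNAs were let-7a and miR-126. The scaled signal of let-7a ran from 9261 to 10580, a 1.14-fold range, and its SD of 0.07 was below its software error of 0.11. miR-126, the endothelial miRNA that tunes growth factor signals, ran from 3940 to 4642, a 1.18-fold range, with an SD of 0.09. let-7f, miR-34a, miR-29c, miR-10a-5p, miR-103 and miR-101b completed the 8 least variable of the brighter miRNAs, with SDs from 0.11 to 0.13. Low SDs rest on the scaling: with no scaling the SD of let-7a was 0.36 and that of miR-126 0.34, and where undetected miRNAs entered the 75th percentile they were 0.46 and 0.48. Single rats counted too, with an SD of 0.05 for miR-34a without A110 and 0.07 for miR-10a-5p without H10. Among dimmer miRNAs, miR-361 (0.11) and miR-338* (0.12) were as steady. The SD of miR-361 was 0.05 without C73 and 0.18 after quantile normalization, and that of miR-338* was 0.56 after quantile normalization.

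Among the brighter miRNAs, miR-338 had the largest SD. miR-338 had an SD of 0.84, with 1462 scanner units in A89 and 142 to 383 in the other 5 rats. Without A89 its SD was 0.40. miR-451 had an SD of 0.73. Its red blood cell partner miR-144, processed from the same transcript and among the dimmer miRNAs, had an SD of 0.88. miR-451 had signals from 510 in C60 to 2905 in A89 (median 1151), and miR-144 from 43.0 in C60 to 336 in A89 (median 93.7). C60 had the dimmest array, and after scaling A75 was lowest for both, with 517 for miR-451 (758 in C60) and 54.9 for miR-144 (64.0 in C60). A89 and A110 were the 2 highest rats for both on either scale.

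miR-214, miR-199a-5p and miR-199a-3p, miRNAs of mesenchymal cells, had SDs of 0.68, 0.55 and 0.48. Within the first slide alone these SDs were 0.19, 0.13 and 0.20, and within the second slide alone 0.69, 0.67 and 0.61. miR-214 had signals from 276 in A75 to 1053 in A89 (median 621). miR-199a-5p had signals from 410 in A75 to 1478 in A89 (median 746), and miR-199a-3p from 1816 in A75 to 6190 in A89 (median 3125). In these unscaled signals A75 was lowest and A89 highest for all 3 miRNAs, and A89 had the highest summed signal of the arrays. After scaling A75 stayed lowest for all 3, while miR-214 was highest in A110 (871), followed by C73 (865) and A89 (734). The other bright miRNAs with large SDs were miR-133a (0.52), miR-193 (0.48) and miR-378 (0.43), an intronic miRNA of a metabolic coactivator gene. For miR-133a, A75 was highest at 3101 and C73 lowest at 1048. The SD of miR-193 was 0.25 within slides and 0.29 without H10. Where undetected miRNAs entered the 75th percentile, the SD was 0.87 for miR-133a, 0.81 for miR-378 and 0.36 for miR-199a-5p.

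Among dimmer miRNAs miR-96 had the largest SD of all, 1.54. Its signal was 9.25 in C73 and 53.1 to 219 in the other 5 rats, with A75 highest. Without C73 its SD was 0.63. miR-466b-1* had an SD of 1.34, with 5.55 in C60, 12.7 in H10 and 39.8 to 70.85 in the other 4 rats. That value was 0.86 with a floor 4 times higher. miR-300-3p had an SD of 1.21, with 102 in C73 and 10.2 to 30.9 elsewhere, and an SD of 0.51 without C73. miR-125a-3p (0.96), miR-144 (0.88), miR-181c (0.84), miR-219-5p (0.65) and miR-208b-3p (0.63) followed. For miR-208b-3p, A75 had 102 and the other rats 19.4 to 58.1, and without A75 the SD was 0.20. The SD of miR-125a-3p was 0.63 without C60, 0.58 after quantile normalization and 0.41 with a floor 4 times higher. That of miR-219-5p was 0.22 without H10, 0.38 after quantile normalization and 0.39 where undetected miRNAs entered the 75th percentile.

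List means differed between rats. The mean log2 deviation of the muscle list from its own mean over rats was -0.48 in C73, -0.27 in A89 and -0.14 in A110, and 0.09 in C60, 0.27 in H10 and 0.53 in A75. After quantile normalization the muscle list was at -0.17 in C73 and 0.25 in A75, with A110 lowest at -0.18 and C60 at -0.01. The mean deviation of the fibroblast list was 0.42 in C73, 0.32 in A110, 0.27 in A89 and 0.10 in C60, against -0.37 in H10 and -0.74 in A75. Where undetected miRNAs entered the 75th percentile, H10 was at 0.31 for this list. Members of a list did not all follow its mean: in A89 scaled miR-21 was the lowest of the 6 rats (3593), while miR-199a-3p (4316) and miR-199a-5p (1031) were the highest. In shares, C73 had the lowest muscle share (34.9%) and the highest fibroblast share (2.89%), and A75 had the highest muscle share (48.8%) and the lowest fibroblast share (1.18%). Shares of one array sum to a whole, so a higher muscle share lowers the others by construction.

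The red blood cell list spread most. Its deviation was 1.03 in A89 and 0.74 in A110, 0.19 in C73, -0.33 in H10, -0.62 in C60 and -1.01 in A75. A89 and A110 were the 2 highest rats and A75 and C60 the 2 lowest under all 4 scalings tried. A75 was also lowest for the fibroblast list, and C73 lower than A75 for the muscle list, under all 4. On this scaling the let-7 list had the smallest spread of the 12 lists plotted, with an SD of 0.10 and deviations from -0.15 to 0.11, and the SD of the leukocyte list was 0.18.

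**Figure D4:**
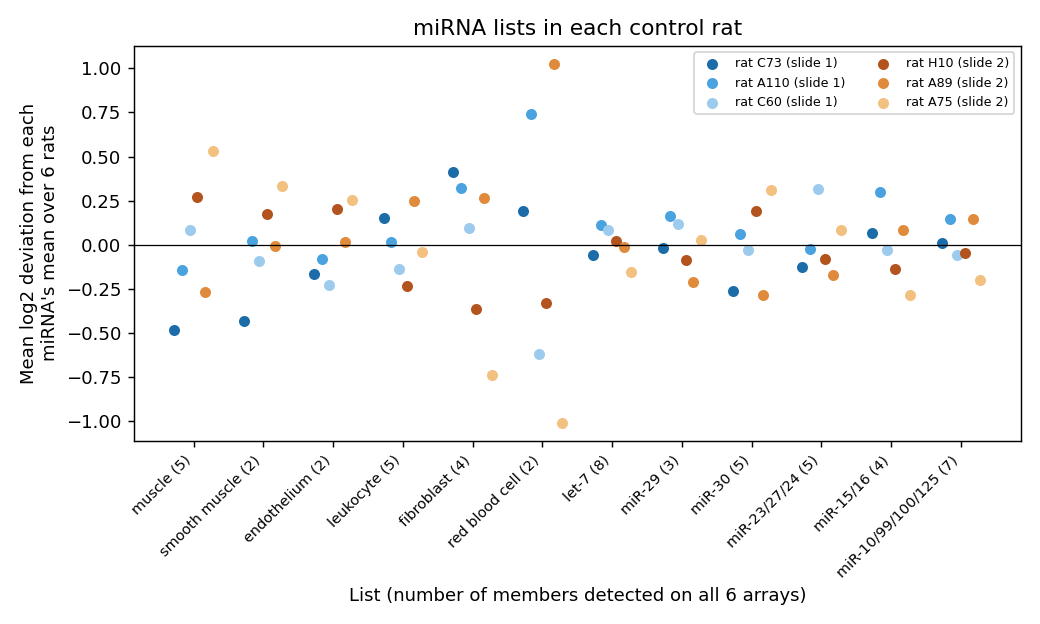
Mean log2 deviation of each list's members from their own means over the 6 rats (y axis) for 12 lists (x axis, members detected on all arrays in parentheses), 1 point per rat. The red blood cell list spans -1.01 to 1.03, and the let-7 list -0.15 to 0.11.

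miRNAs of neighbouring genes had steadier ratios, by the median, than other pairs. Of the 169 miRNAs, 149 were placed on RefSeq hairpins, and 73 pairs had genes within 10 kb on one strand, counting any copy of a gene. The SD over rats of the log2 ratio of one miRNA to another was compared, since the brightness of an array cancels in a ratio within it. It had a median of 0.20 for these 73 pairs, 0.25 for 21 pairs of arms of one hairpin and 0.39 for 10173 pairs on different chromosomes. As a share of the SD that the single SDs would give if the pair were unrelated, the medians were 66.0%, 77.2% and 98.4%. Some steady neighbour pairs were close in sequence, such as let-7a and let-7f (0.08) and miR-29a and miR-29b (0.11), and their probes may not tell them apart. Others had different seeds, such as miR-24 and miR-27b (0.09) and miR-23a and miR-24 (0.10). The part of similar sequences in the medians was not tested. Pairs share miRNAs and rats, so these are descriptions with no test.

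Single pairs show the sizes involved. miR-133b and miR-206, neighbours with different seeds, had SDs of 0.35 and 0.36, but their ratio had an SD of 0.14. miR-199a-5p and miR-214 had a ratio SD of 0.17 against 0.88 from their single SDs, and miR-144 and miR-451 of 0.31 against 1.14. The arms miR-199a-3p and miR-199a-5p had a ratio SD of 0.15. miR-23b and miR-27b had 0.09, whereas miR-23a and miR-27a, the other copy of that cluster, had 0.39. The pattern did not hold for every pair. For 13 of the 73 neighbour pairs and 5 of the 21 arm pairs the ratio SD was not below that from the single SDs. Among these were miR-450a and miR-503 (0.61 against 0.46) and miR-300-3p and miR-494, the neighbour pair with the highest ratio SD (1.40 against 1.32). Both pairs were chosen after their values were seen.

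**Figure D5:**
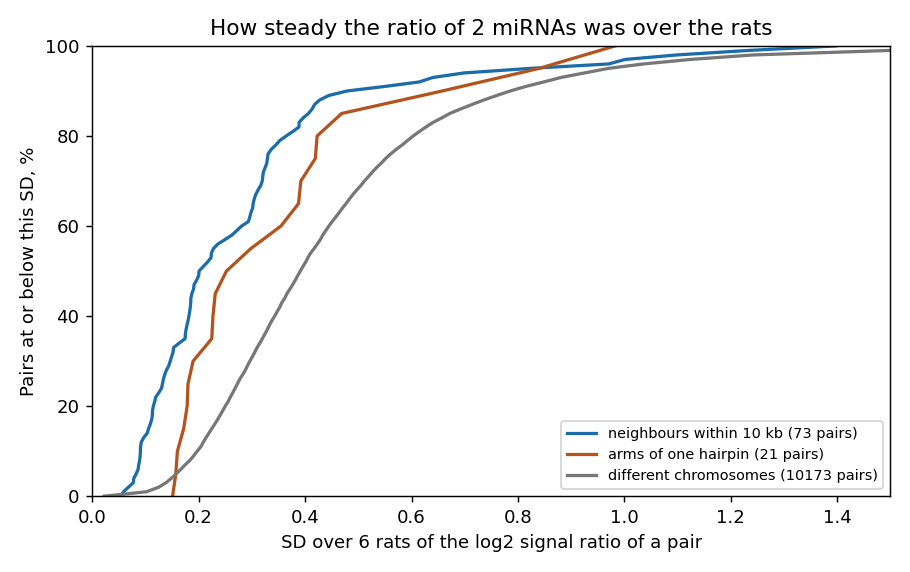
Percent of pairs (y axis) whose log2 signal ratio had an SD over the 6 rats at or below the value on the x axis, which ends at 1.5, for neighbouring genes, arms of one hairpin and pairs on different chromosomes. The curves cross 50% at 0.20, 0.25 and 0.39.

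Whole profiles were close between rats. Over the 169 miRNAs, the Pearson correlation of log2 scaled signals ran from 0.971 (C73 and A75) to 0.994 (H10 and A75) for the 15 pairs of rats, a correlation across miRNAs that mostly shows their fixed differences in level. The median absolute log2 difference was 0.23 for the 6 pairs on one slide (0.18 to 0.34) and 0.33 for the 9 pairs on different slides (0.23 to 0.44).

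The slide was therefore tested within the control rats. The summed signal was 386778 on average for the 3 rats of the first slide and 540040 for the 3 of the second, and the ranges did not overlap (p = 0.1 by an exact permutation test, two-sided, which is the lowest value possible with 3 against 3). The number of detected miRNAs was 194 and 195 (p = 1 by the same exact test). For single miRNAs, limma found none of 194 different between slides at an adjusted p under 0.05, so the share called was 0%. At an unadjusted p under 0.05 there were 42, of which 13 were higher and 29 lower on the second slide. That balance turned with the scaling: 31 were higher and 4 lower with no scaling, 14 and 6 where undetected miRNAs entered the 75th percentile, and 16 and 9 after quantile normalization. limma called 11 of 169 when only miRNAs detected on all 6 arrays were tested, and 7 of 189 without A89.

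The 5 smallest p-values belonged to miR-760-5p (log2 difference, second minus first slide, -0.96 ± 0.14 SE, limma adjusted p = 0.064), miR-505 (0.78 ± 0.12, 0.064), miR-29a* (1.00 ± 0.18, 0.071), miR-352 (0.75 ± 0.14, 0.071) and miR-196c (0.86 ± 0.17, 0.071). miR-505 was detected on 4 of the 6 arrays, so its difference rests on floored values. The scaled signals of miR-196c were 29.2 to 38.0 on the first slide and 55.6 to 69.6 on the second. Their mean scaled signals were 15.02 (miR-760-5p), 6.49 (miR-505), 24.9 (miR-29a*), 205 (miR-352) and 49.1 (miR-196c).

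Among the 20 brightest, the shares of 4 did not overlap between slides. Over all 169 miRNAs detected on every array this was so for 36, or 21.3%, so 4 of 20 is near the share over all miRNAs. A full separation of 3 against 3 has a probability of 0.1 by chance, so 21.3% is above what independent miRNAs would give. Shares of one array are not independent, and this excess was not tested. miR-499, the slow fibre miRNA, held 0.95 to 1.07% on the first slide and 1.37 to 1.54% on the second (log2 difference in scaled signal 0.60 ± 0.16, limma adjusted p = 0.087). miR-27a held 2.61 to 3.69% and 1.88 to 2.35% (-0.60 ± 0.19, limma adjusted p = 0.12). miR-22 and miR-29b were also lower in share on the second slide. The slides held different rats, so slide and animal cannot be told apart in these 3 against 3.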

How the data were processed

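Soleus total RNA of 6 control offspring was hybridised to 1-colour Agilent rat arrays built on miRBase release 16. For each array the authors deposited the scanner software's summary of intensity per miRNA, which lists a total signal, an error and a flag for detection. No normalization between arrays had been applied, and the software version is not given in the sources used here. Their value table of the series held the same intensity values (tolerance 0.001), and its 6 columns of other samples were not used. The 22 control rows were left out.

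Shares were each detected miRNA's percent of its array's summed signal. For spread, signals were scaled to a 75th percentile taken over the 169 miRNAs that every array detected, floored at 4.77, the median over arrays of the lowest detected signal, and put on the log2 scale. Slides were compared over 194 miRNAs (3 or more arrays with a detection) with limma 3.58.1 in R 4.3.3 and Benjamini-Hochberg adjustment, and single values with exact permutation tests in scipy 1.17.1. Each rat was 1 array, so the number of arrays limits the precision. The slide comparison was tested on simulated data.

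Named were the 20 highest mean shares, all fixed lists, the 8 largest and smallest SDs, the 5 brightest partly detected miRNAs and the 5 smallest slide p-values. Members and lists were chosen with earlier results of these data known. Alternatives covered detection, denominator, scaling, floor, slide and each rat left out. The detection rules for range and slide sums, and miR-208b-3p in the muscle list, were added after the data were seen. Sequences came from RefSeq (GRCr8), with arms assigned by hand where the array names none. The files name no genome build, so no coordinates are given, and neighbouring genes were found in the RefSeq table.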

Additional observations from a re-analysis of the deposited data

Results flagged for a closer look

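Of 107 series of 6 values tested for a value set apart (signal summaries, list shares and named miRNAs), 4 had a gap to the nearest value that took more than the critical part of the whole range, and about 1 in 20, or 5.35, is given by chance. miR-96 was far lowest in C73, with the gap taking 0.65 of the log2 range. miR-208b-3p was far highest in A75 (0.72). miR-300-3p was far highest in C73 (0.63). The median signal of detected miRNAs was highest in H10 (183, a gap of 0.65 of the range), the rat with the fewest detected miRNAs. Over all 169 miRNAs detected on every array, 6 had a rat set apart, against 8.45 by chance at 1 in 20, and miR-185 (lowest in C73), miR-331 (highest in C60) and miR-33 (lowest in H10) were the others.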

How the results depend on the processing

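With 3 rats a slide, small differences between slides could not be resolved, and signals near the floor have no order. The count detected on all arrays stayed within 1.5 times under other detection rules, each slide alone and each rat left out. Shares and the number of miRNAs holding 50% of the signal stayed within 1 SD. Their alternatives were other denominators, the summed arrays, the authors' table, each slide alone and each rat left out, with no other detection rule. The authors' table held the same values. For a value fixed in each rat, leaving out 1 rat or taking 1 slide alone cannot move the mean of 6 by 1 SD. Those settings were thus no check of stability. Leaving out each rat gave 169 to 176 miRNAs detected on all arrays, 6 to 6.8 miRNAs for 50% of the signal, 60.2 to 62.3% for the 10 brightest, 15.7 to 16.7% for the brightest, 39.7 to 42.5% for the muscle list and a log2 range of 13.7 to 13.9. The same gave a median SD of 0.25 to 0.29, a median error of 0.12, 0 to 7 miRNAs called between slides (7 without A89), summed signals higher by 125752 to 191108 on the second slide, and a difference in detected miRNAs from -11.3 (without A89) to 10.2 (without H10), with -4.67 without C60, so its direction rested on single rats. With a signal of at least 20 required, the log2 range was 11.8. The median SD was 0.47 when arrays were scaled to the 75th percentile of all miRNAs, most of which were not detected. Between slides, 2 miRNAs were called with that scaling, 3 with a floor 4 times lower and 11 where a detection in all 6 rats was required, which leaves 169 to test. For the other changes the cause was not tested. That scaling shifted the median of the 169 miRNAs by -0.36 to 0.60 over rats, and no scaling by -0.52 to 0.50, and list deviations are read relative to it. Of the single shares none of 240 values moved by 1 SD, but most of the 240 came from settings that could not move them. Of the single SDs 59 of 364 moved by over 1.5 times. No paired analysis was possible because all 6 rats belong to 1 group and their labels give no shared replicate numbers.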

Other observations

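Further values were looked up after the values of their neighbours were seen. miR-96 lies in one cluster with miR-182 and miR-183, yet it was detected in all 6 rats with a median signal of 109, while miR-182 (9.47) and miR-183 (14.9) were detected in A75 alone, the rat with the highest miR-96 signal (219). The imprinted Dlk1-Dio3 cluster was taken as all array names that matched a RefSeq hairpin from Mir770 to Mir410, 92 names in all. Of these, 77 were detected in no rat (over all rows of the array, 65.7% were) and 15 in at least 1 rat. The highest scaled signal was in C73 for 12 of the 15, in A89 for 2 (miR-494 and miR-667) and in A110 for 1 (miR-3544), and in unscaled signals the counts were 10, 4 and 1. Over all 232 miRNAs detected in any rat, the highest scaled signal was in C73 for 41 (17.7%), and over the 63 partly detected ones for 18 (28.6%). The difference of the cluster from these was not tested. Members detected in few rats, such as miR-379 (C73 alone) and miR-667 (A89 alone), entered the 15 through the rat where they were highest. Only 4 members were detected in all 6 rats. Of these, miR-300-3p, miR-487b and miR-770* were highest in C73 after scaling and miR-494 in A89. miR-136 (149), miR-381 (123) and miR-300-3p (102) were among those highest in C73, and 11 of the 15 were not detected in every rat. miR-409-3p matched no hairpin by name and was highest in A110 (36.3). miR-299, also not among the 92 names, was highest in C73 (28.4). miR-487b was steady, with an SD of 0.14 and signals from 168 to 316.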
